A study of Mus musculus with 88 samples.

Results

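Sqstm1 (p62), the cargo receptor of selective autophagy, and 9 proteins that act with it were followed in dendritic cells after lipopolysaccharide (LPS). The members were the trypsin protein groups whose first gene name was Sqstm1, Tax1bp1, Optn, Map1lc3b, Gabarapl2, Atg3, Atg5, Atg7, Keap1 or Tbc1d5. Of these 10 genes, 8 had a group, among 5899 groups kept in all. Map1lc3b and Gabarapl2 had none.

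The cells came from the marrow of C57BL/6J females and were differentiated with GM-CSF in medium-heavy (M) SILAC medium, then pooled and moved to heavy (H) medium as LPS at 100 ng/ml or no stimulus (mock) was given. No other genotype or mouse age is given in the sources used here. Cells were sampled at 0 h and then, in each arm, at 10 times from 0.5 to 24 h, with 2 replicates, which made 42 trypsin runs in 21 groups. Cells at 0 h were also digested with AspN or LysN in place of trypsin, in 2 samples each. The M form marks protein present before the switch of medium ("pre-existing"), the H form protein made after it ("new"), and a light (L) reference was mixed into every run. Values below are the deposited M/L and H/L ratios divided by a run factor, so that they read as levels relative to the same reference.

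In selective autophagy, cargo receptors such as SQSTM1, TAX1BP1 and OPTN bind ubiquitinated cargo at one end and lipidated ATG8 proteins (the LC3 and GABARAP families) at the other, and are themselves degraded with the cargo in the lysosome. ATG7 and ATG3 are the E1-like and E2-like enzymes that attach ATG8 proteins to phosphatidylethanolamine, and ATG5, joined to ATG12, promotes that step. SQSTM1 also binds KEAP1, the adaptor that presents the transcription factor NRF2 for degradation. TBC1D5 is a GTPase-activating protein for RAB7 that binds the retromer and LC3. In myeloid cells Sqstm1 is known as a gene induced through Toll-like receptor signalling and NRF2.

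The promoters of 3 members are shown because their proteins behaved differently below, and the window (250 bases before to 50 after the start, RefSeq, GRCm38.p6) lets the known regulatory letters be read. All 10 genes had an entry, with 12 promoters in total. Capitals mark matches on either strand to the NF-kB consensus, to the antioxidant response core TGACNNNGC, or to CACGTG, the core of the lysosomal CLEAR element. Sqstm1 lies at chr11:50210771-50211070 (minus strand), Tbc1d5 at chr17:51179303-51179602 (minus strand) and Atg3 at chr16:45158579-45158878 (plus strand).
Sqstm1: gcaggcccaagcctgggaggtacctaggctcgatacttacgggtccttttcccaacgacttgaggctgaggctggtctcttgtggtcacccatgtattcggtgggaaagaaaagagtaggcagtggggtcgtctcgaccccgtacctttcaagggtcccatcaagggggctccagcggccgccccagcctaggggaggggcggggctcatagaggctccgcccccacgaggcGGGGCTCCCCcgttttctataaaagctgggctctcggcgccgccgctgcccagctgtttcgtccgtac
Tbc1d5: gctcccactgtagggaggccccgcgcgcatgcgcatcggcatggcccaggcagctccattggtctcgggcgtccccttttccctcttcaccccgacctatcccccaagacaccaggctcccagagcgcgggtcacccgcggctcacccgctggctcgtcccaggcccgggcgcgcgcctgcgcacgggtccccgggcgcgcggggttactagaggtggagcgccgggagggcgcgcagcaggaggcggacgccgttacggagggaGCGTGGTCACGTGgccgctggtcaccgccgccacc
Atg3: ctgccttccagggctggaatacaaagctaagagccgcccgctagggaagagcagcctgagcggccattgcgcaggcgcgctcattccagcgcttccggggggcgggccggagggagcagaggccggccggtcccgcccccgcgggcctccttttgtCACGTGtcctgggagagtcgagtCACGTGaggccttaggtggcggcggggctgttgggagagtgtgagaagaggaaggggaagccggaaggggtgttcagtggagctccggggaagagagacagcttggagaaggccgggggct
The Sqstm1 window held 1 NF-kB match, which starts 18 bases before the gene's start, and no match to the other 2 motifs. An NF-kB match was present in 4.51% of all 32851 promoters of the table. The Tbc1d5 window shown held 1 CACGTG that overlaps 1 match to the antioxidant response core, found in 7.15% and 12.4% of promoters. The table's other Tbc1d5 promoter, at chr17:51159329-51159628, held no match to any of the 3 motifs. The Atg3 window held 2 copies of CACGTG, and those of Atg5 and Atg7 held 1 each. Of the windows not shown, 1 of 2 Tax1bp1 promoters held 1 NF-kB match and 1 antioxidant response match, and that of Map1lc3b held 1 antioxidant response match. A match is a description of the letters in this window.

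Depth was high for 4 members and low for the rest. Over all proteins, the M/L peptide pairs of a run numbered between 68083 and 109064. Sqstm1 (19 peptides, 61.1% of the sequence covered), Atg7, Atg3 and Atg5 had M/L and H/L ratios in all 42 runs, with medians of 36, 40, 32.5 and 10.5 M/L pairs a run. Tbc1d5 had M/L in 40 runs (median 6.5 pairs) and H/L in 30. Keap1 had M/L in 13 runs, Optn in 7 and Tax1bp1 in 4, mostly from 2 pairs. Of the dendritic cell markers 8 of 11 were in the table (Flt3, Batf3 and Ciita were not), of the macrophage markers 8 of 10, of the granulocyte markers 12 of 12 and of the lymphocyte markers 0 of 8.

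At 0 h, iBAQ, the summed intensity per possible peptide, ranked Atg3 highest of the members in each of the 3 digests. In the trypsin runs Atg3 made up 412 and 313 ppm of summed iBAQ, Atg7 84.6 and 84.3, Sqstm1 49.7 and 51.6, Atg5 21.02 and 24.52 and Tbc1d5 5.70 and 3.45. Keap1 had 7.10 ppm in replicate 1 and is listed at 0 in replicate 2. The order of Sqstm1 and Atg7 depended on the enzyme: with LysN Sqstm1 stood at 180 and 165 ppm and Atg7 at 88.7 and 92.4 ppm. In the trypsin runs at 0 h the 8 dendritic cell markers with a value summed to 883 ppm. The 8 macrophage markers summed to 10580 ppm and 11 granulocyte markers to 47820 ppm, both above the dendritic cell markers.

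Sqstm1 was higher with LPS in all 3 measures of level. From 6 to 12 h its new protein was 4.23-fold higher with LPS, its pre-existing protein 1.76-fold higher and its total level 3.36-fold higher. With the run factor, new protein was called higher from 2 h on. Without a run factor it was called only from 6 h on, and with summed intensities only from 4 h on. With the deposited normalised ratios it was called at 2 and 3 h but not at 4, 5 and 6 h. Pre-existing protein depended more on the processing at single times. With the run factor it was called higher from 6 h on. Without a run factor it was called at no single time, and with summed intensities at 24 h alone. In LPS cells the fitted slope of log2 M/L was a rise of 0.022 per hour. M/L is to that extent no clean measure of old protein.

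New Sqstm1 protein (H/L) was 0.0389 and 0.0406 in the 2 runs at 0 h. At 1 h it was 0.0601 and 0.0497 in mock and 0.0611 and 0.0658 in LPS cells. At 2 h it was 0.0777 and 0.0824 in mock against 0.177 and 0.189 in LPS cells. The arms were thus close at 1 h and apart at 2 h. At 4 h the values were 0.149 and 0.158 in mock and 0.528 and 0.529 in LPS cells, and at 12 h 0.209 and 0.219 in mock and 1.09 and 1.03 in LPS cells. Mock cells stayed near their 6 h level to 24 h (0.226 and 0.242), while LPS cells stood lower at 24 h (0.866 and 0.859) than at 12 h.

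**Figure D1:**
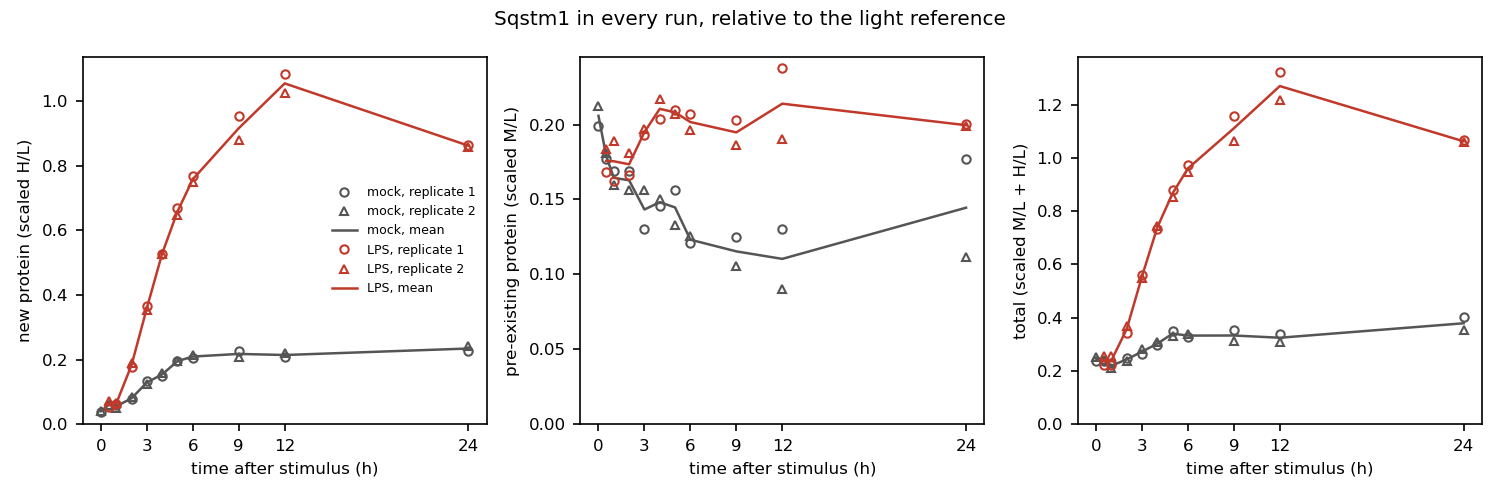
Sqstm1 in every run against time (h) as new (scaled H/L), pre-existing (scaled M/L) and total protein (their sum), all relative to the light reference; circles are replicate 1, triangles replicate 2, lines their mean, grey mock and red LPS. New protein in LPS cells reaches 1.09 and 1.03 at 12 h against 0.209 and 0.219 in mock. M/L falls in both arms up to 2 h. At 12 h it is lower still in mock and near the 0 h level in LPS cells.

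Over 6, 9 and 12 h the 6 LPS runs had H/L from 0.750 to 1.09 (median 0.917) and the 6 mock runs from 0.205 to 0.227 (median 0.211), with no overlap. The log2 difference was 2.08 ± 0.09 (SE, n = 6 and 6, limma adjusted p = 2.97e-14), and LPS was higher in 6 of 6 same-numbered pairs. Of 3316 proteins tested 12.3% were called (10.6% higher and 1.75% lower with LPS), and in 5.67% of 2734 proteins with complete values all LPS runs lay above all mock runs. Among the members, 1 of the 4 tested was called, and that was Sqstm1. By size of the difference Sqstm1 was number 48 from the top, and by p it was number 1.

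Early, over 1, 2 and 3 h, the difference was 0.96 ± 0.09 (limma adjusted p = 2.54e-07), in a comparison where 0.475% of 3371 proteins were called. It missed the threshold when no run factor was used (0.97, adjusted p = 0.239), with ratios from summed intensities (0.82, adjusted p = 0.128), and without replicate 1 or replicate 2 (1.04 and 0.89, adjusted p = 0.708 and 0.756). At single times new Sqstm1 was called at 8 of 10 times, from 2 h on, and not at 0.5 and 1 h. Without a run factor it was called at 4 times, all from 6 h on (at 2 h 1.22, limma adjusted p = 1). With the deposited normalised ratios it was called at 5 times, which were 2, 3, 9, 12 and 24 h. The share of all proteins called higher was 0% at 0.5 h, 0.0317% at 1 h, 0.0645% at 2 h, 0.588% at 3 h, 0.929% at 4 h, 1.38% at 5 h, 2.8% at 6 h, 5.59% at 9 h, 7.23% at 12 h and 7.88% at 24 h. At 2 h it was 1 of 2 proteins called higher of 3100 tested, with 1.19 ± 0.15 (limma adjusted p = 7.74e-05); the other, named after its value was seen, was the cytokine Il1b (4.74 ± 0.46). The difference grew to 2.30 ± 0.15 at 12 h and was 1.88 ± 0.15 at 24 h (limma adjusted p = 4.08e-09, 10.2% of 3095 proteins called). The late difference exceeded the early one by 1.12 ± 0.12 (limma adjusted p = 1.04e-06, 7.22% of proteins called). That excess was not called without replicate 1 or 2 (adjusted p = 0.280 and 0.308), with H/L at 0 h subtracted (0.84, adjusted p = 0.307) or with the deposited normalised ratios (0.43, adjusted p = 0.277).

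Pre-existing Sqstm1 (M/L) was 0.199 and 0.212 at 0 h. In mock cells it was lower at later times, with 0.1459 and 0.1503 at 4 h and 0.130 and 0.0903 at 12 h. In LPS cells it was 0.204 and 0.217 at 4 h and 0.238 and 0.190 at 12 h. Before that, mean M/L had fallen in both arms, from 0.206 at 0 h to 0.173 in LPS and 0.163 in mock cells at 2 h. From 4 to 12 h the LPS runs lay near the 0 h level, and the mock runs did not. At 24 h M/L was 0.177 and 0.112 in mock and 0.200 and 0.199 in LPS cells. Both mock runs stood higher at 24 h than at 12 h. The log2 difference was 0.97 ± 0.16 at 12 h and 0.50 ± 0.16 at 24 h. Over 6 to 12 h the 6 LPS runs ranged from 0.187 to 0.238 (median 0.200) and the mock runs from 0.0903 to 0.130 (median 0.123), with no overlap, as in 0.879% of 2843 proteins. The log2 difference was 0.81 ± 0.09 (n = 6 and 6, limma adjusted p = 1.13e-06), in a comparison where 17.1% of 3432 proteins were called, 3.53% higher and 13.6% lower with LPS. Early it was 0.21 ± 0.09 and was not called (limma adjusted p = 0.628, 0.332% called), and it was called at 6, 9, 12 and 24 h. Without a run factor it was called at 0 of the 10 times, and with summed intensities at 24 h alone. The share of all proteins called higher in M/L was 1.16% at 0.5 h, 0.0294% at 1 h, 0% at 2, 3, 4 and 5 h, 0.0602% at 6 h, 0.646% at 9 h, 1.76% at 12 h and 10.3% at 24 h. The late exceeded the early difference by 0.60 ± 0.13 (limma adjusted p = 0.00549, 6.32% called). Without replicate 1 or without replicate 2, which leaves 1 run a group, the late difference was 0.85 or 0.78 and was not called (limma adjusted p = 0.0944 and 0.0835).

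Read as a slope of log2 M/L from 0.5 to 12 h, Sqstm1 fell by 0.062 per hour in mock cells (half-time 16.1 h) and rose by 0.022 per hour in LPS cells (limma adjusted p = 4.92e-07 and 0.0346, n = 18 each). The fit starts at 0.5 h, when mean M/L in LPS cells was 0.176, below the 0 h mean of 0.206. Protein present before the switch of medium cannot increase after it, so the rise is not a gain of old Sqstm1. M/L is to that extent no clean measure of old protein, and the source of the rise was not tested. The slopes differed by 0.085 ± 0.012 per hour (limma adjusted p = 3.5e-06), where 19.9% of 3531 proteins differed and 4.96% had the higher slope with LPS. In mock cells 4.62% of proteins had a steeper loss than Sqstm1, and the median protein had a half-time of 109 h. The difference missed the threshold without a run factor (0.12, adjusted p = 0.0636) and with summed intensities (0.046, adjusted p = 0.140).

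Replacement, the slope of the log2 M share within a run, uses H/M and needs no run factor. The H share of Sqstm1 was 16.8% and 17.5% at 0 h, and at 12 h 65.3% and 71.1% in mock and 84.8% and 87.2% in LPS cells. The half-time of the M share was 8.35 h in mock and 4.59 h in LPS cells. Such a half-time is a time of loss only at a constant total level. Mean total Sqstm1 was 0.239 in both arms at 0.5 h, and at 12 h 0.324 in mock and 1.27 in LPS cells. Since M/L did not fall in LPS cells from 0.5 to 12 h, the M share fell there as H was added, and 4.59 h is no half-life of old protein. The slopes differed by -0.098 ± 0.026 per hour (limma adjusted p = 0.00604, 13.9% of 3342 proteins called and 12.1% with the lower slope in LPS cells). In mock cells 0.539% of proteins had a steeper replacement slope than Sqstm1 had there. The difference was not called with 2 to 12 h alone (-0.066, adjusted p = 0.0746), without replicate 1 or 2 (adjusted p = 0.0849 and 0.241) or with the deposited normalised H/M (-0.051, adjusted p = 0.928). Since the H share stayed between 62.8% and 71.1% in mock cells from 6 h on, a straight line is a rough description of the mock series.

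Total Sqstm1 (M/L plus H/L) was 0.238 and 0.253 at 0 h and from 0.309 to 0.353 over 6 to 12 h in mock cells (median 0.332). In LPS cells it ranged from 0.946 to 1.32 (median 1.11). The groups did not overlap, as in 6% of 2734 proteins. The log2 difference was 1.75 ± 0.05 (limma adjusted p = 2.6e-18, 19.8% of 3316 proteins called, 10.2% higher and 9.59% lower), number 12 by size and number 1 by p. It was the only member of 4 tested that was called.

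Other cell types' markers moved in the same runs. Over 6 to 12 h the summed new protein of 6 macrophage markers ranged from 1.80 to 2.45 in LPS and from 3.06 to 4.84 in mock runs, and that of 7 granulocyte markers from 1.67 to 2.36 and from 2.32 to 3.49. For 6 dendritic cell markers the ranges were 2.23 to 3.38 and 1.95 to 2.94. In pre-existing protein the macrophage sum ranged from 2.11 to 3.07 in LPS and from 4.11 to 4.75 in mock runs, the granulocyte sum from 7.97 to 10.9 and from 10.4 to 15.8, and the dendritic cell sum from 2.02 to 3.10 and from 2.44 to 3.70. In total protein the macrophage sum ranged from 4.39 to 5.25 and from 7.18 to 8.99, the granulocyte sum from 10.3 to 12.6 and from 13.9 to 18.1, and the dendritic cell sum from 4.72 to 6.06 and from 5.01 to 5.83. The macrophage sums did not overlap between the arms in any of the 3 measures, nor did the granulocyte sums in total protein. Of single proteins, 0.622% in new, 5.84% in pre-existing and 5.27% in total protein had all LPS runs below all mock runs. Of the macrophage markers 6 of 6 tested were called lower in both pre-existing and total protein, and of the granulocyte markers 4 of 7 were lower and 1 higher in both. Of the dendritic cell markers 2 of 7 were called lower in pre-existing and 0 of 7 in total protein. Over all proteins 13.6% were called lower in pre-existing and 9.59% in total protein. The part of these markers in the results on Sqstm1 and Tbc1d5 was not tested. In these bulk lysates fewer cells of a type and less protein per cell cannot be told apart.

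The other cargo receptors were near the limit of detection. Tax1bp1, which acts in clearing aggregates and in A20-mediated restraint of NF-kB, had an M/L ratio in 4 of 20 LPS runs and 0 of 22 mock runs, although intensities were recorded in 12 and 11 runs. In the LPS runs its M/L was 0.502 at 0.5 h, 0.426 at 1 h, 0.142 at 4 h and 0.0768 at 12 h, and its H/L was 0.0673, 0.238 and 0.631 at the last 3 of these. The M form was thus lower and the H form higher at each later run, in 1 run a time from 2 to 4 pairs, with no mock value to set beside them. Optn, a receptor for damaged mitochondria and bacteria, had ratios in 4 mock and 3 LPS runs. Its H/L was 5.61 at 0 h, before H medium was given, and from 0.689 to 3.55 in the other 6 runs, so its H signal did not start near 0. Neither receptor was tested.

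Of the ATG8 proteins no group was named Map1lc3b or Gabarapl2 in the trypsin table. The accession that the LysN table names Gabarapl2 was the last of 3 listed in the trypsin group named Gabarap, which had ratios in 16 runs and was not tested, so trypsin peptides of both cannot be told apart in that group.

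The enzymes of ATG8 conjugation did not pass the test in any late comparison. Atg7, the E1-like enzyme, had late H/L from 0.118 to 0.236 in LPS and 0.130 to 0.186 in mock runs, and late M/L from 0.791 to 0.992 and 0.873 to 1.01. Atg3, the E2-like enzyme, had late H/L from 0.0737 to 0.194 and 0.0898 to 0.143, and late M/L from 0.875 to 1.05 and 0.859 to 0.944. Atg5 had late H/L from 0.0598 to 0.174 and 0.0904 to 0.155, and late M/L from 0.624 to 0.786 and 0.623 to 0.853. The LPS and mock ranges overlapped for all 3 proteins in both forms. In total protein the log2 differences were 0.01 for Atg7 (95% interval -0.10 to 0.11), 0.07 for Atg3 (-0.04 to 0.17) and -0.06 for Atg5 (-0.23 to 0.10). In new protein the intervals were wider, from -0.36 to 0.24, from -0.43 to 0.45 and from -0.80 to 0.35.

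**Figure D2:**
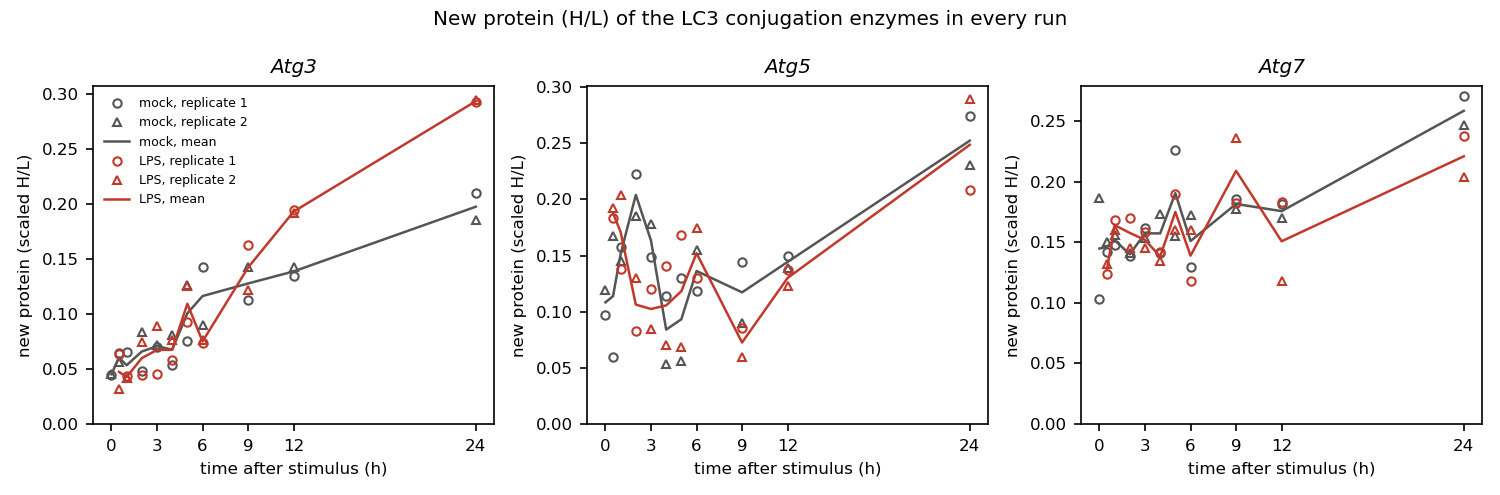
New protein (scaled H/L) of Atg3, Atg5 and Atg7 in every run against time (h); symbols, lines and colours are as for Sqstm1. All 3 stay under 0.30 in both arms, and the arms overlap from 6 to 12 h.

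All 3 enzymes were mostly old protein throughout. At 12 h the H share of Atg3 was 12.9% and 12.3% in mock and 16.2% and 15.3% in LPS cells, that of Atg5 17.1% and 14.7% and 18.4% and 14.2%, and that of Atg7 19.0% and 15.9% and 16.6% and 11.3%. The median protein had an H share of 13.7% at 0 h, before H medium was given, so the H values of Atg5 and Atg7 lay near that starting signal. Atg3 started lower, at 4.31% and 4.49%, and had a replacement half-time of 89.3 h in mock and 64.8 h in LPS cells, a difference that was not called (limma adjusted p = 0.535). At 24 h pre-existing Atg3 was 0.732 and 0.711 in mock and 0.814 and 0.896 in LPS cells. These groups did not overlap, as in 23.9% of 3136 proteins with all 4 values, and the difference of 0.24 ± 0.08 was called (limma adjusted p = 0.0219), at a time when 10.3% of proteins were called higher. The loss slope of Atg3 differed by 0.015 ± 0.007 per hour (adjusted p = 0.127), which passed the threshold with the replicate block (adjusted p = 0.0446), with each run centred on its own median (0.019, adjusted p = 0.0303) and without replicate 1 (0.026, adjusted p = 0.0434).

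Keap1 gave no group to test. Its M/L ranged from 0.415 to 0.931 in 5 mock runs and from 0.447 to 2.29 in 8 LPS runs. The ranges overlapped, and most ratios rested on 2 pairs.

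Tbc1d5 differed in the pre-existing form. Its M/L was 1.22 and 1.17 at 0 h. In mock cells it was 0.667 and 0.583 at 4 h, 0.957 and 0.511 at 6 h, 0.701 and 0.578 at 9 h and 0.501 and 0.380 at 12 h. In LPS cells it was 0.997 and 0.976 at 4 h, 1.02 and 0.693 at 6 h, 1.02 and 0.898 at 9 h, and 1.04 and 1.02 at 12 h. The mock runs thus stood lower at later times, and these LPS runs other than replicate 2 at 6 h lay from 0.898 to 1.04. The LPS runs were below the 0 h level from the first time on. Mean M/L at 0.5 h was 0.926 in LPS and 1.10 in mock cells, and at 1 h 0.964 and 1.16. The log2 difference was -0.25 at 0.5 h, -0.27 at 1 h, 0.17 at 2 h and 0.19 at 3 h, and was called at none of these. At 24 h the LPS runs gave 1.10 and 0.917 and the mock runs gave no ratio.

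**Figure D3:**
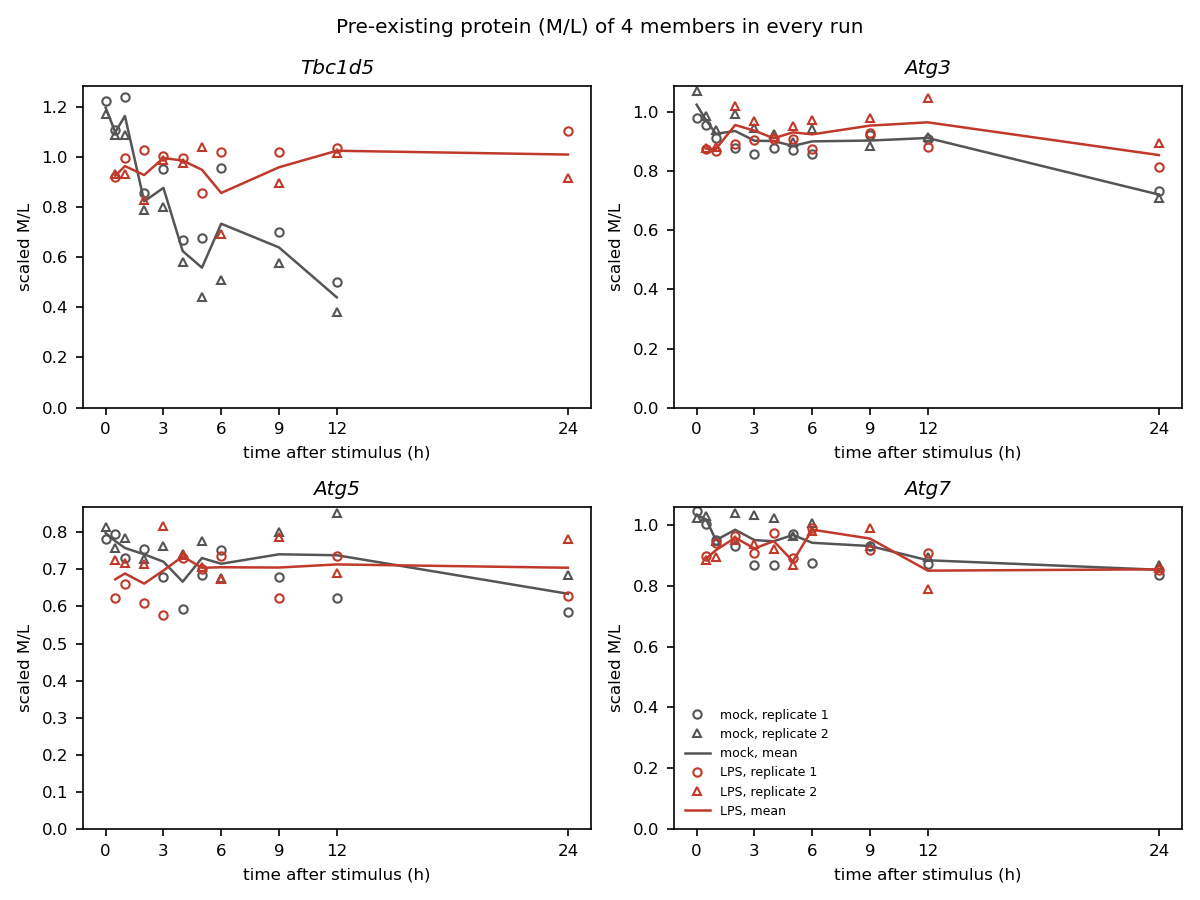
Pre-existing protein (scaled M/L) of Tbc1d5, Atg3, Atg5 and Atg7 in every run against time (h); symbols, lines and colours are as for Sqstm1. Tbc1d5 falls to 0.501 and 0.380 at 12 h in mock and stands at 1.04 and 1.02 with LPS, while the arms of the other 3 overlap over 6 to 12 h.

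Over 6 to 12 h the 6 LPS runs ranged from 0.693 to 1.04 (median 1.02) and the mock runs from 0.380 to 0.957 (median 0.545), so the groups overlapped through the mock run of 0.957 at 6 h. The log2 difference was 0.70 ± 0.13 (n = 6 and 6, limma adjusted p = 0.000454), and LPS was higher in 6 of 6 pairs. Tbc1d5 and Sqstm1 were the 2 members called of 5 tested, at numbers 11 and 9 by size, where 17.1% of 3432 proteins were called and 3.53% were higher. The early difference was 0.03 ± 0.13 (limma adjusted p = 1), and the late exceeded it by 0.67 ± 0.18 (limma adjusted p = 0.0307, 6.32% of proteins called). With ratios from summed intensities the late difference was 0.57 (adjusted p = 0.207). Without replicate 1 or 2 it was 0.83 and 0.56 and was not called (adjusted p = 0.209 and 0.241). At single times it was called at 12 h (1.23 ± 0.22, limma adjusted p = 0.000734, 1.76% of proteins called higher), with the replicate block at 3 times, and at none without a run factor or with summed intensities.

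The loss slope of Tbc1d5 was -0.11 per hour in mock (half-time 9.48 h) and 0.006 per hour in LPS cells (limma adjusted p = 3.39e-06 and 0.813). The slopes start at 0.5 h, so the lower M/L of the LPS cells there than at 0 h is not part of them. The slopes differed by 0.11 ± 0.02 (limma adjusted p = 0.000526), where 19.9% of 3531 proteins differed and 4.96% had the higher slope with LPS. In mock cells 0.935% of proteins fell more steeply than Tbc1d5. With 2 to 12 h alone the difference was 0.085 (adjusted p = 0.0909), and with summed intensities 0.089 (adjusted p = 0.181). The ratio rested on 2 to 7 M/L pairs in the late mock runs and 3 to 10 in the late LPS runs. New Tbc1d5 could not be tested late because mock runs at 9 and 12 h had no H/L, and early it was not called (-0.20 ± 0.67). The replacement slope, which needs no run factor, was -0.002 per hour in mock and 0.017 in LPS cells (limma adjusted p = 0.974 and 0.557, n = 13 each). The difference in replacement slope, 0.02 ± 0.05, was not called (limma adjusted p = 0.889). Its mock values ended at 6 h, so it covers less time than the loss slope.

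**Figure D4:**
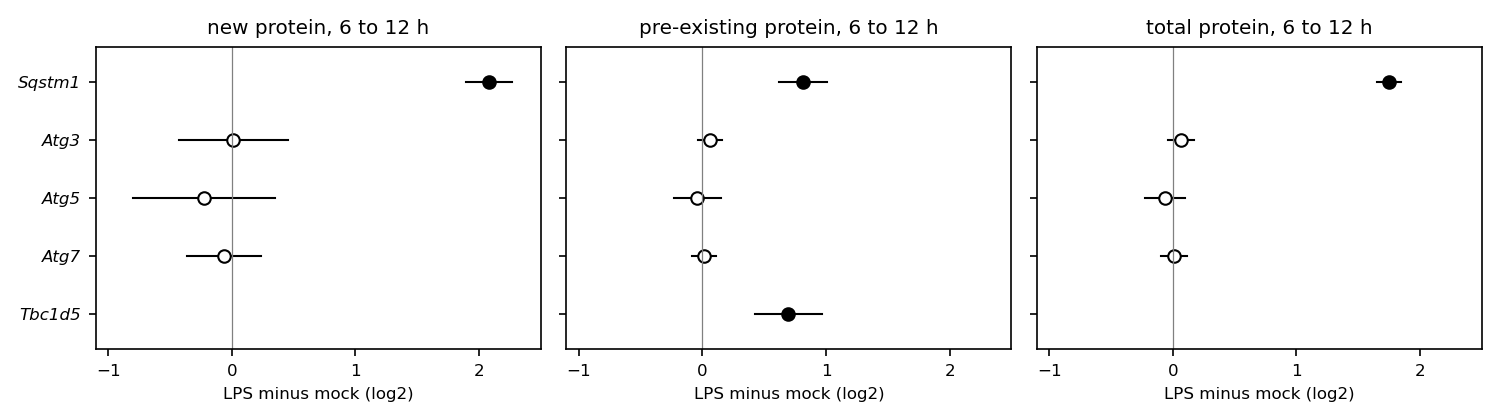
LPS minus mock over 6 to 12 h (log2) of the members tested, as new, pre-existing and total protein; points are limma estimates, bars their 95% intervals, filled points are called at adjusted p under 0.05. Sqstm1 is called in all 3, Tbc1d5 in pre-existing protein (it was not tested in the other 2), and the intervals of Atg3, Atg5 and Atg7 include 0.

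The rest of the pathway was counted from lists of known partners. In new protein, 7 of 18 tested proteins of the KEAP1-NRF2 axis were higher with LPS and 0 lower, where 10.6% of all 3316 proteins were higher and 1.75% lower (median 0.27, against 0.03 over all proteins). They included thioredoxin reductase Txnrd1 (1.25 ± 0.12), thioredoxin Txn (0.97 ± 0.17), ferritin heavy chain Fth1 (0.95 ± 0.25), peroxiredoxin Prdx1 (0.93 ± 0.14), sulfiredoxin Srxn1 (0.79 ± 0.19) and heme oxygenase Hmox1 (0.71 ± 0.12). In total protein 7 of 18 were also called higher (10.2% of all proteins were), the 6 largest being Hmox1 (0.39 ± 0.05), Srxn1 (0.28 ± 0.04), Txnrd1 (0.26 ± 0.06), Rbx1 (0.19 ± 0.05), Txn (0.18 ± 0.04) and Prdx1 (0.17 ± 0.04). In pre-existing protein 1 was higher and 1 lower, where 3.53% and 13.6% of all proteins were, and the lower one was Srxn1 (-0.14 ± 0.03). Apart from Rbx1, a ubiquitin ligase subunit, the proteins named are of redox and iron handling, several of them known targets of NRF2.

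The lists closer to the autophagosome were short, and 12.3% of all proteins were called in new protein. There 0 of 7 other receptors and adaptors, 0 of 12 fusion proteins, 0 of 11 proteins of mTORC1 and AMPK regulation, 0 of 3 other conjugation proteins and 0 of 12 retromer and Rab7 partners of Tbc1d5 were called. Sh3glb1, a membrane-bending partner of the class III PI3-kinase complex, was higher in new protein (0.62 ± 0.11) and lower in pre-existing protein (-0.18 ± 0.04). Tank, a scaffold of the kinase TBK1, was higher in new protein (1.56 ± 0.50, limma adjusted p = 0.0457). Tbk1, which phosphorylates SQSTM1 and OPTN, was lower in pre-existing protein (-0.44 ± 0.08, limma adjusted p = 0.000253).

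In pre-existing protein 13.6% of all 3432 proteins were called lower and 3.53% higher. By list, 2 of 7 other receptors and adaptors, 1 of 12 fusion proteins and 1 of 11 proteins of mTORC1 and AMPK regulation were lower. Higher were 1 of 12 fusion proteins and 1 of 3 other conjugation proteins. The mitophagy receptors Fkbp8 (-0.37 ± 0.07) and Phb2 (-0.22 ± 0.05) were lower, as were Vps16 of the HOPS tethering complex (-0.24 ± 0.08) and Hbxip of the Ragulator complex (-0.22 ± 0.06). The fusion SNARE Snap29 (0.28 ± 0.06), the ATG8 protease Atg4b (0.14 ± 0.04), the ubiquitin ligase subunit Rbx1 (0.15 ± 0.05) and the sorting nexin Snx2 (0.11 ± 0.03) were higher. Snx2 was the 1 of 12 retromer and Rab7 partners of Tbc1d5 that was called, and the 12 ranged from -0.09 to 0.11, against 0.70 for Tbc1d5.

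In total protein, where 10.2% of all proteins were higher and 9.59% lower, 2 of 3 other conjugation proteins were higher. These were Atg4b (0.30 ± 0.10) and Atg16l1 (0.24 ± 0.08), which brings the ATG12-ATG5 conjugate to membranes. Snap29 (0.30 ± 0.07) and Snx2 (0.10 ± 0.03) were also higher, and the lysosomal membrane protein Lamp1 (-0.21 ± 0.08), Fkbp8 (-0.32 ± 0.08) and Phb2 (-0.15 ± 0.05) were lower. By loss slope 2 of 3 conjugation proteins (Atg4b and Atg16l1) and 3 of 12 retromer and Rab7 partners (Snx2, Snx6 and Tbc1d2) had the higher slope with LPS, against 4.96% of all proteins. These were named after their values were seen. Other lists leaned the other way. Of 7 other receptors and adaptors 0 had the higher and 2 the lower slope, and of 12 fusion proteins 1 and 2. Of 11 proteins of mTORC1 and AMPK regulation it was 0 and 2, and of 5 TBK1 and A20 partners 0 and 1. In the KEAP1-NRF2 axis it was 1 and 1 of 18, and 0 of 3 class III PI3-kinase proteins were called. No protein of the ULK1 complex, and none of ATG9, ATG2 and WIPI, had enough values to be tested.

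**Figure D5:**
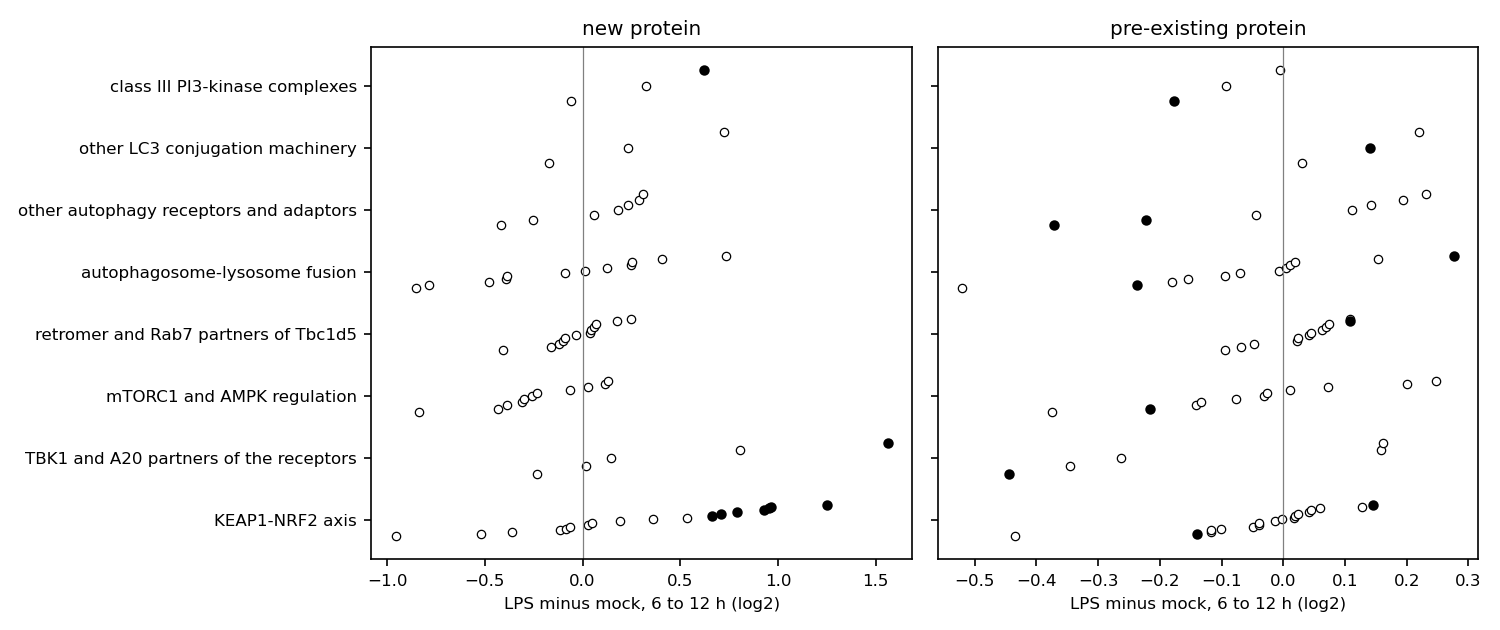
LPS minus mock over 6 to 12 h (log2) of each tested protein of the partner lists in new and pre-existing protein; filled points are called by limma at adjusted p under 0.05, open points are not. The KEAP1-NRF2 row holds 7 filled points above 0 in new protein, and the retromer row none.

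Across the 20 same-time, same-replicate pairs, the proteins whose LPS minus mock difference in new protein ran most like that of Sqstm1 were Arf4 (Pearson r = 0.93), Mt2 (0.91), Cd14 (0.91), Pcbp2 (0.90), Sdcbp (0.90) and Kpna3 (0.90), of 2481 compared. The median r over all of them was -0.02. The pairs share runs, the light reference and the rise of label with time, so these values are a description.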

How the data were processed

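Per the labels, the protein of LPS-treated and mock dendritic cells was digested with trypsin in 42 runs, and the M and H channel of each run are 84 of the 88 samples. The authors deposited, per the file headers, the SILAC ratio M/L, H/L and H/M of each protein group and run, the count of peptide pairs behind it, and the intensity per channel with iBAQ, that intensity per possible peptide. Column names are those MaxQuant writes; its version and settings, like the light reference's make-up, were not given in the sources used here, and the submitters' processing notes list the build mm9. Of 6266 trypsin groups 5899 were kept after leaving out reverse, contaminant and site-only entries, and 0 per-sample columns were left unmatched.

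The un-normalised ratio was scaled by 1 factor a run (log2 -0.68 to 0.69), taken as the median sum of M/L and H/L over the 2628 proteins that had M/L throughout. In R 4.3.3, limma 3.58.1 fitted the log2 values with 1 mean for each of 21 groups. Contrasts were taken over 6, 9 and 12 h (late), 1, 2 and 3 h (early), 24 h and each time. The late and early windows needed 4 of 6 values in each arm, and 24 h and each single time needed both values in each arm. Slopes used 0.5 to 12 h with 12 of 18 values. P-values were adjusted over all proteins of a comparison by the Benjamini-Hochberg method, with calls under 0.05. The tests of pre-existing protein early, late minus early and at each time, and of the loss slope, were added after seeing the data. The fits were tested on simulated data.

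The members and lists were chosen with earlier results of these data known. All 10 members are named whatever their values; of the partner lists, those called late, at most the 6 largest changes a list; for likeness to Sqstm1, the 6 highest correlations. Same-numbered LPS and mock runs deviated together at all 10 times (correlation 0.25 to 0.46 in new and 0.31 to 0.55 in pre-existing protein), so the numbers pair the samples, and the replicate block was an alternative. Cells were pooled before stimulation and the labels do not say that replicates were separate cultures, so p-values measure a spread that may be technical. The protocol text gives harvests up to 12 h, and the handling of the 24 h samples was not given in the sources used here. The number of pairs limits a ratio's precision, and no counting interval was computed.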

Additional observations from a re-analysis of the deposited data

Results flagged for a closer look

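The LPS effect on Sqstm1 differed between the time windows: in new protein the late difference (6 to 12 h) exceeded the early one (1 to 3 h) by 1.12 (limma adjusted p = 1.04e-06), and in pre-existing protein by 0.60 (limma adjusted p = 0.00549). For Tbc1d5 the late exceeded the early difference in pre-existing protein by 0.67 (limma adjusted p = 0.0307). The Sqstm1 excess in new protein was not called with H/L at 0 h subtracted or with the deposited normalised ratios. In pre-existing protein the excess was not run under the alternatives, and the late Tbc1d5 difference was not called with summed intensities.

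Signal of both members that have no trypsin group was present in the 0 h digests with other enzymes, which enter no comparison. Gabarapl2, an ATG8 protein of the GABARAP family, had 87.8 and 107 ppm of summed iBAQ in the 2 LysN samples, close to Atg7 there (88.7 and 92.4 ppm). Map1lc3b (LC3B) was the second name of an AspN group of 3 accessions led by Gm6055, which had 91.7 ppm in replicate 1 from 1 peptide and is listed at 0 in replicate 2.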

How the results depend on the processing

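New and total Sqstm1 over 6 to 12 h were called under each alternative run, with log2 differences from 1.72 to 2.31 and from 1.67 to 1.91; without single replicates or runs they lay from 2.04 to 2.12 and from 1.72 to 1.78. The pre-existing difference lay from 0.73 to 0.90 for Sqstm1 and from 0.55 to 0.85 for Tbc1d5 in such fits, called except where a whole replicate was left out. Of 505 values of single members under alternatives, 415 kept direction and call, 21 lost a call, 6 gained one, and 63 had no call but another sign. In all of these the cause was not tested beyond what follows.

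Main counts of proteins called were 408 (new late), 16 (new early), 227 (new late minus early), 316 (new at 24 h), 588 (pre-existing late), 656 (total late), 464 (replacement slope) and 703 (loss slope). Without a run factor, which moved the median of all proteins by up to 0.30 at 24 h against 0.06, these were 2 early, 115 late minus early, 181 at 24 h (94.5% higher against 77.2%), 20 pre-existing, 119 total (91.6% higher against 51.5%) and 7 loss slopes (42.9% against 24.9%); 0 members were called early, 1 by loss slope, and new Sqstm1 at 4 of 10 times in place of 8. With the deposited normalised ratios they were 195 early (96.9% higher against 75%), 708 late minus early (6.5% against 87.2%), 169 at 24 h (60.4%), 1003 pre-existing (54.1% against 20.6%) and 0 replacement slopes; 4 members were called in pre-existing protein, among them Atg3 (0.10) and Atg7 (0.09), 1 late minus early, which was Atg7 (-0.97, adjusted p = 0.0389) in place of Sqstm1, 0 by replacement slope, and new Sqstm1 at 5 times. Summed intensities gave 269 new late, 8 early, 101 late minus early, 159 at 24 h, 242 pre-existing, 306 total and 274 loss slopes, with 0 members early, 1 in pre-existing protein and 0 by loss slope. Subtracting H/L at 0 h, which left fewer proteins to test, gave 216 late, 6 early, 29 late minus early (0 members) and 32 at 24 h. With 2 to 12 h alone the counts were 168 loss slopes (1 member) and 0 members by replacement slope.

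Leaving out a whole replicate leaves 1 run a group, and the fit then assumes 1 LPS effect per window. Over all fits without a replicate or run the counts ranged from 35 to 390 (new late), 0 to 0 (early, 0 members), 9 to 29 (late minus early, 0 members), 0 to 600 (pre-existing, 0 to 2 members), 21 to 695 (total), 253 to 357 (replacement slope, 0 members) and 232 to 499 (loss slope). New protein at 24 h and at each time was not run without a replicate, since no residual degrees of freedom are left. With the replicate block late new Sqstm1 was 2.08 (adjusted p = 2.48e-14); the paired fit changed the loss slope of Atg3 (adjusted p = 0.0446) and the number of times pre-existing Tbc1d5 was called (3 in place of 1), and no other member's call. Asking for 2 of 6 values still needed a value at every time of each arm.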
